A study of Coprinopsis cinerea with 7 samples.

Results

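The regions described here are the most repeat-rich 100 kb bin of each of the 13 chromosomes of Coprinopsis cinerea, an ink cap mushroom used as a model of basidiomycete development. Each 300 bp window of the genome had a value r, the log2 ratio of its share of the input reads in the primary count table to its share in a second, multiple-mapping table, with 1 count added to the sum of the 2 inputs. A low r marks a window that holds a smaller share of the reads in the primary table than in the second one, whose name refers to multiple mapped reads. Bins were cut from position 1 of each chromosome, and the bin with the largest share of windows with r under -0.5 was taken among the 356 bins that held at least 200 windows. The 13 bins were therefore chosen by input counts alone, and they hold 4228 of 120537 windows (3.51%). They had been put forward as candidate centromere-like blocks. No centromere protein or mark was measured in these libraries and r is not a repeat annotation, so they are called repeat-rich bins throughout.

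The data are from CMS-seq of genomic DNA of oidia, the asexual spores of the fungus. Bisulfite converts 5-hydroxymethylcytosine (5hmC) to cytosine-5-methylenesulfonate (CMS), and a non-commercial antibody against CMS pulls down fragments that carry it. The labels describe 5 anti-CMS immunoprecipitations (IP), 3 from the first biological replicate and 2 from the second, which are compared with 2 inputs, 1 from each biological replicate. All 7 libraries are of the same stage, with no strain, treatment or genotype named. In the deposited tables each group has 2 columns, 1 with the tag 1_1 and 1 with the tag B_1 (n = 2 columns for each group), and nothing ties the tags to the biological replicates.

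As background, 5hmC is made from 5-methylcytosine by dioxygenases of the TET/JBP family, a family that is expanded in the genomes of mushroom-forming fungi, where its genes often lie within or beside DNA transposons. In fungi, DNA methylation is found mainly in transposons and other repeats. Many fungal centromeres and chromosome ends are built of such repeats.

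Window counts of the primary table summed to 106176723 for IP 1_1 and 67181684 for IP B_1, against 36059418 for input 1_1 and 36233140 for input B_1. The multiple-mapping totals were 24990768 for IP 1_1 and 19994333 for IP B_1, against 28735765 for input 1_1 and 27600179 for input B_1. The highest count in any window was 162928 in the primary table and 1071 in the multiple-mapping table, so the second table compresses high counts. Its 2 input columns differed by less than sampling noise (chi-square per degree of freedom 0.916), while those of the primary table did not (1.90). The main counts and shares of called windows, summed bins and regions of the multiple-mapping table are therefore also given with its inputs counted as 1 sample. The IP pair had a chi-square per degree of freedom of 9.75 in the primary table and 1.502 in the multiple-mapping table. In the windows of the bins with r under -0.5, however, the IP pair of the multiple-mapping table had 0.683 and its inputs 0.687. Both pairs thus differed by less than sampling noise there, and counting the inputs as 1 sample leaves the IP pair as it is.

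The bins differ in how repeat-rich they are, which is a description of the choice and was not tested. The share of windows with r under -0.5 was highest on chromosome 2 (56.9%, chr2:2100001-2200200) and chromosome 6 (56.5%, chr6:1700101-1800000). It was 49.1% on chromosome 1 (chr1:1-100200), 42.3% on chromosome 10 (chr10:700201-800100) and 40.5% on chromosome 9 (chr9:2200201-2300100). Chromosomes 3 (chr3:2100001-2200200) and 12 (chr12:600001-700200) both had 36.5%, chromosome 11 (chr11:1100101-1200000) 35.1% and chromosome 7 (chr7:300001-400200) 33.5%. Lower values were found on chromosome 4 (30.03%, chr4:500101-600000), chromosome 5 (26.9%, chr5:3400201-3468300), chromosome 8 (17.1%, chr8:2300101-2400000) and chromosome 13 (15.3%, chr13:200101-300000). All 13 bins together held 1560 windows with r under -0.5, which is 36.9% of their windows and 17.8% of the 8770 such windows in the genome. Coordinates are those of the window tables, for which the labels name no genome build.

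The bin just outside the choice, the second on its chromosome, came closest on chromosome 13 (15.3% in the chosen bin, 14.1% in the second) and chromosome 4 (30.03% and 28.2%). The margin was above 10 percentage points on 3 chromosomes, namely 1, 2 and 6. Bins on 2 chromosomes reach a chromosome end, the first bin of chromosome 1 and the last bin of chromosome 5, which is short at 227 windows. The other 11 lie between 113.4 kb and 1543.5 kb from the nearer end. The immediate neighbours were mostly poor in such windows: those of chromosome 2 had 0% on either side. Neighbours above 10% lay on both sides on chromosome 6 (21.6% to the left and 25.2% to the right) and chromosome 9 (10.8% and 30.3%), and to the left on chromosomes 12 (12.9%) and 5 (11.7%).

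The bins carried fewer genes than the rest of the chromosomes. Window midpoints lay in a gene for 46.7% of windows of the bins and for 66.0% of windows elsewhere on the 13 chromosomes, and the share was below that of its own chromosome in all 13 bins. It was lowest in the bins of chromosome 2 (23.7%) and chromosome 9 (25.8%). The bins overlapped 16 to 38 annotated genes each, with a median of 31, against a median of 39 for all other bins of that size.

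The IP columns, which the choice did not use, had a similar share of windows of low r. With r recomputed in each column alone, the share of windows of the bins with r under -0.5 was 36.2% in IP 1_1 and 37.1% in IP B_1, against 36.9% in input 1_1 and 36.9% in input B_1. On the rest of the 13 chromosomes the IP columns gave 6.68% and 6.55%, against 6.06% and 5.97% for the inputs. The bins also took a larger share of the IP reads than of the input reads. In the primary table they held 3.56% of IP 1_1 and 3.62% of IP B_1, against 3.20% of input 1_1 and 3.14% of input B_1. With multiple mappings kept they held 5.84% of IP 1_1 and 6.44% of IP B_1, against 5.41% of input 1_1 and 5.31% of input B_1. Most of that excess lay in their windows of low r, with 3.49% and 4.10% in the IP columns, against 3.12% and 3.04% in the inputs. Their other windows held 2.35% and 2.34%, against 2.29% and 2.28%. The raw counts at low r were nearly equal in that table, as given below, and their part in the excess was not tested. For the bins as a whole both IP columns lay above both inputs in either table. A two-sided exact permutation test gave p = 0.333 for each table, the smallest that 2 columns against 2 allow.

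Anti-CMS enrichment was called more often in these bins than elsewhere. With edgeR's quasi-likelihood test and a Benjamini-Hochberg adjusted p under 0.05 over all windows, 943 of 3965 tested windows of the bins (23.8%) were higher in IP in the primary table. On the rest of the 13 chromosomes 9176 of 114391 windows (8.02%) were, and 8.76% of all windows tested. In the multiple-mapping table, 726 of 4228 windows of the bins (17.2%) were higher, against 7466 windows elsewhere (6.48%) and 7.00% of all. The median log2 fold change of IP over input was 0.16 in the bins and -0.02 elsewhere in the primary table, and 0.20 and -0.02 in the multiple-mapping table. In all 943 called windows of the primary table both IP columns stood above both inputs after scaling.

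Most of the enrichment was below 2-fold. Among the called windows of the bins, 175 were at least 2-fold higher in the primary table, or 4.41% of those tested, against 1.68% elsewhere and 1.80% of all windows tested, and 47 were at least 4-fold higher. Of the multiple-mapping counts, 28 windows passed 2-fold (0.662%), against 0.428% elsewhere and 0.438% of all. The number of calls depended on the inputs: without input 1_1 the primary table gave 513 calls in the bins, and without input B_1 it gave 374. The corresponding multiple-mapping counts were 328 and 239, while leaving out IP 1_1 gave 1956 and leaving out IP B_1 gave 1192, and counting the inputs as 1 sample gave 381. Counts over all windows also fell without either input or with the inputs as 1 sample, and rose without either IP column. With library totals in place of TMM scaling, 570 of 3965 tested windows of the bins were higher (14.4%, against 5.07% elsewhere) and 139 lower in the primary table. Over all windows that setting called 6554 of 119450 higher and 7539 lower.

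**Figure D1:**
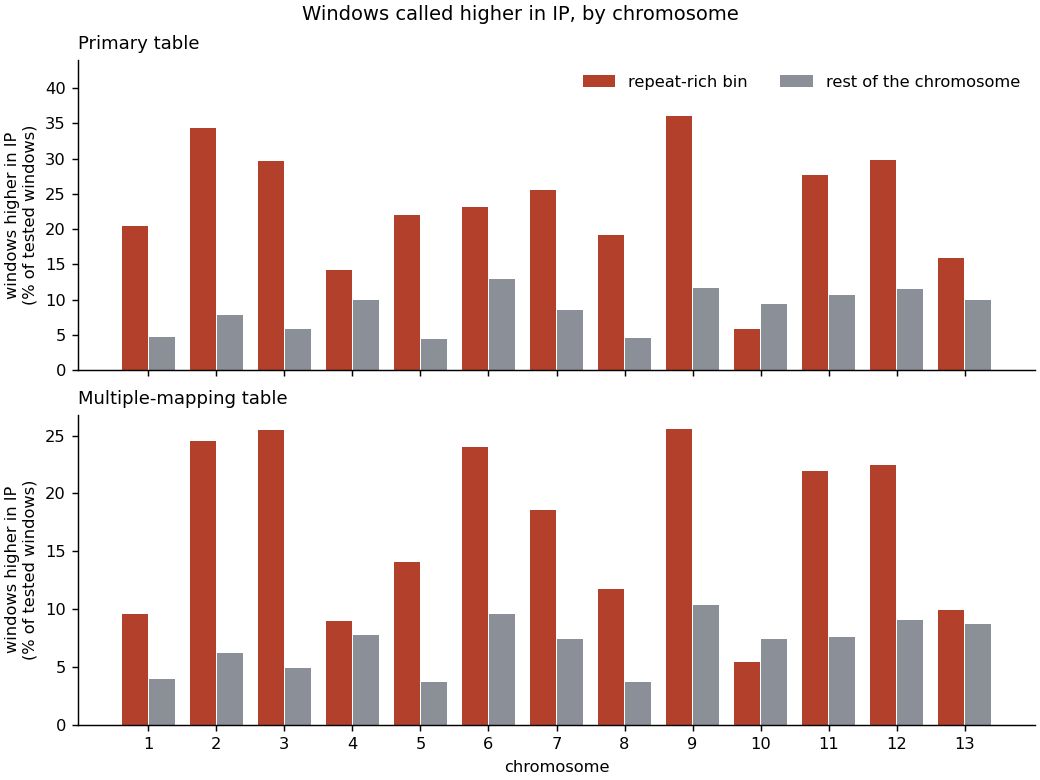
Share of tested 300 bp windows called higher in IP (y axis, percent) for the repeat-rich bin (red) and the rest of its chromosome (grey), by chromosome, in the primary table (top) and the multiple-mapping table (bottom). The red bar is the taller one on 12 of 13 chromosomes in both tables, and chromosome 10 is the exception in both.

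The bins differed widely among themselves. On 12 of 13 chromosomes a larger share of windows was called in the bin than in the rest of that chromosome, in both tables. The largest shares in the primary table were 36.0% in the bin of chromosome 9 (11.7% in its rest), 34.3% on chromosome 2 (7.80%), 29.9% on chromosome 12 (11.5%) and 29.6% on chromosome 3 (5.90%). The bins of chromosomes 11 (27.7%), 7 (25.6%), 6 (23.1%), 5 (22.1%), 1 (20.5%) and 8 (19.2%) followed, with 4.42% to 12.9% in the rest of their chromosomes. On chromosomes 13 (15.9% in the bin, 9.93% in the rest) and 4 (14.2% and 9.97%) the gap was smaller. The bin of chromosome 10 had 5.84% called against 9.33% in its rest, and 5.41% against 7.41% in the multiple-mapping table. Its share of windows with low r was the fourth highest, but 76 of these 141 windows could not be tested in the primary table. Those tested had a median log2 fold change of 0.30, and all 141 had 0.35 in the multiple-mapping table. Their median counts there were 608 to 677 per column, and few windows of low r were called at high depth, as given below. The differences between the bins and the rest of their chromosomes were not tested beyond the window calls, since windows of a bin are neighbours and not replicates.

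A high share of calls also occurred in other repeat-rich bins. The chosen bin had a larger share of called windows than the second bin of its chromosome on 8 of 13 chromosomes by the primary counts, and on 7 of 13 with multiple mappings kept. On chromosome 2 the second bin had 37.1% called in the primary table, above the 34.3% of the chosen bin. On chromosome 7 the bin to the left had 36.6% called with 5.41% of its windows at low r, above the 25.6% of the repeat-rich bin beside it.

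Read counts in the windows of low r differed between the tables. In the windows of the bins with r between -5 and -2, the median count of the primary table was 357.5 in IP 1_1 and 222 in IP B_1, against 95 in input 1_1 and 90.5 in input B_1. The same windows' medians in the multiple-mapping table were 648 and 612 in the IP columns, against 661.5 and 614 in the inputs. All 4 columns of the second table thus held nearly the same raw count there. In windows of the bins with r of -0.5 or more they did not: medians were 199 and 153 in the IP columns, against 234 and 225 in the inputs. Because the IP columns have smaller totals in that table, a window with equal raw counts in all columns has a log2 fold change of 0.43 after scaling. The medians of 0.35 to 0.39 in windows of low r, given below, lie near that value, and the part of the count ceiling in them was not tested.

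**Figure D2:**
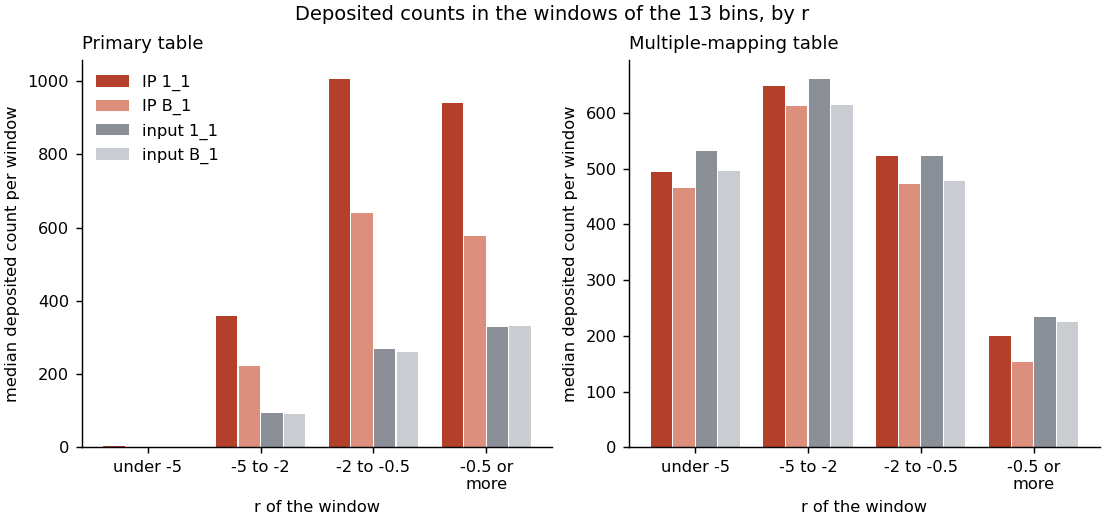
Median deposited count per window (y axis) of each IP and input column in the windows of the 13 bins, by class of r (x axis), in the primary table (left) and the multiple-mapping table (right). With r under -5 the primary medians are 3 counts or fewer, and in the multiple-mapping table the 4 columns are nearly level in all 3 classes of low r.

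Windows of low r were sorted into 3 classes of r and set against windows of the same class elsewhere. With r from -2 to -0.5, 50.5% of tested windows of the bins were called higher in the primary table, against 42.2% elsewhere, with median log2 fold changes of 0.44 and 0.38. With r from -5 to -2 the shares were 33.8% and 31.3%, and the medians 0.46 and 0.44. With r under -5, where the primary table holds few reads, 3.02% and 3.05% were called. The same classes in the multiple-mapping table gave 33.4% against 32.3%, 16.0% against 22.5%, and 17.6% against 12.2%, with medians in the bins of 0.39, 0.39 and 0.35. Among the windows of low r as a whole, 35.2% were called in the bins and 31.3% elsewhere in the primary table, and 22.4% and 23.7% in the multiple-mapping table. With the inputs of that table as 1 sample the 3 classes gave 14.4% against 17.1%, 4.14% against 9.14%, and 5.86% against 4.02%. The order of the shares over all windows of low r depended on the columns used. Without input B_1 the primary shares were 15.0% in the bins and 16.3% elsewhere, and without input 1_1 they were 21.7% and 20.4%. With multiple mappings kept they were 4.62% and 7.25% without input B_1, 8.27% and 9.81% without input 1_1, 91.5% and 81.3% without IP 1_1, 57.3% and 48.9% without IP B_1, and 46.3% and 39.6% by DESeq2's Wald test. Taking its inputs as 1 sample gave 8.21% and 11.01%, and the share in the bins was then below the 9.48% of their other windows.

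How often windows of low r were called in the second table varied with its depth. At a summed input count of up to 400, 23 of 60 windows of low r in the bins (38.3%) were called there, against 78 of 954 other windows of the bins (8.18%). Between 400 and 600 counts the shares were 56.7% and 15.7%, between 600 and 800 they were 58.6% and 23.7%, and between 800 and 1200 they were 22.3% and 13.8%. Above 1200 counts, near the ceiling, 2.43% of 659 windows of low r and 0 of 19 other windows were called, too few of the other windows for a comparison. On the rest of the 13 chromosomes the same classes gave 26.9%, 43.6%, 46.0%, 25.6% and 2.45% for windows of low r. The other windows there gave 2.69%, 5.83%, 16.6%, 16.1% and 0.565%. The higher share at low r up to 1200 counts, and the few calls above, were thus not particular to the bins. In the 4 classes up to 1200 counts a larger share of windows of low r than of the other windows of the bins was called. With the inputs as 1 sample this held up to 800 counts, with 36.7% against 7.86%, 48.7% against 13.6% and 16.7% against 5.12%, and no window of the bins above 800 counts was called.

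The 2 inputs enter both r and the fold change, so the measures are not independent in full. When r was taken from input 1_1 alone and the IP columns were set against input B_1 alone, the same 13 bins were chosen. In the primary table, 21.8% of the windows of low r in them were then called higher, against 8.85% of the other windows. With the inputs exchanged the same 13 bins were chosen again, and the shares were 14.7% and 6.93%. With multiple mappings kept, the first exchange gave 8.51% and 7.31%, and the second 4.62% and 6.26%, so the order of the 2 classes turned round in that table.

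Windows of the bins with r of -0.5 or more stood out more from their counterparts. In the primary table, 487 of 2668 (18.3%) were called higher, against 6.70% elsewhere on the 13 chromosomes, and in the multiple-mapping table, 14.1% against 5.38%. Without input B_1 these shares were 6.78% against 2.87% and 6.26% against 2.38%, without input 1_1 they were 8.88% against 3.60% and 7.46% against 2.83%, and with the inputs of the second table as 1 sample 9.48% against 3.65%. In 11 of 13 bins this share exceeded that of the same class in the rest of the chromosome, in both tables. It was highest in the bin of chromosome 9 (40.9% in the primary table), followed by chromosomes 2 (29.2%), 7 (27.5%), 3 (27.4%) and 6 (26.9%). It was lowest on chromosomes 10 (3.13%) and 4 (6.87%). Outside genes 24.7% of these windows were called in the bins and 9.20% elsewhere, and within genes 14.1% and 5.56%.

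These calls lay mostly near windows of low r. Of windows within 900 bp of a window of low r, 45.5% were called higher in the bins and 29.04% elsewhere in the primary table, with median log2 fold changes of 0.38 and 0.16. From 900 to 3000 bp the shares were 26.0% and 16.9%. From 3000 to 9900 bp they were 9.44% and 8.51%, and beyond 9900 bp 5.63% and 3.03%. The multiple-mapping table gave 37.4% and 25.1% within 900 bp, 20.3% and 13.1% from 900 to 3000 bp, 5.73% and 6.47% from 3000 to 9900 bp, and 4.48% and 2.48% beyond. The share of calls thus fell with distance in the bins and elsewhere alike. With the inputs of the second table as 1 sample the shares were 26.3% and 16.8%, 12.6% and 8.01%, 2.99% and 4.20%, and 4.09% and 1.87% over these 4 distances. Without input B_1 the primary table gave 18.6% and 13.8%, 7.57% and 6.44%, 1.91% and 3.07%, and 4.35% and 1.49%. In these alternatives, and in others, the share in the bins was lowest from 3000 to 9900 bp, where it was below that elsewhere.

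**Figure D3:**
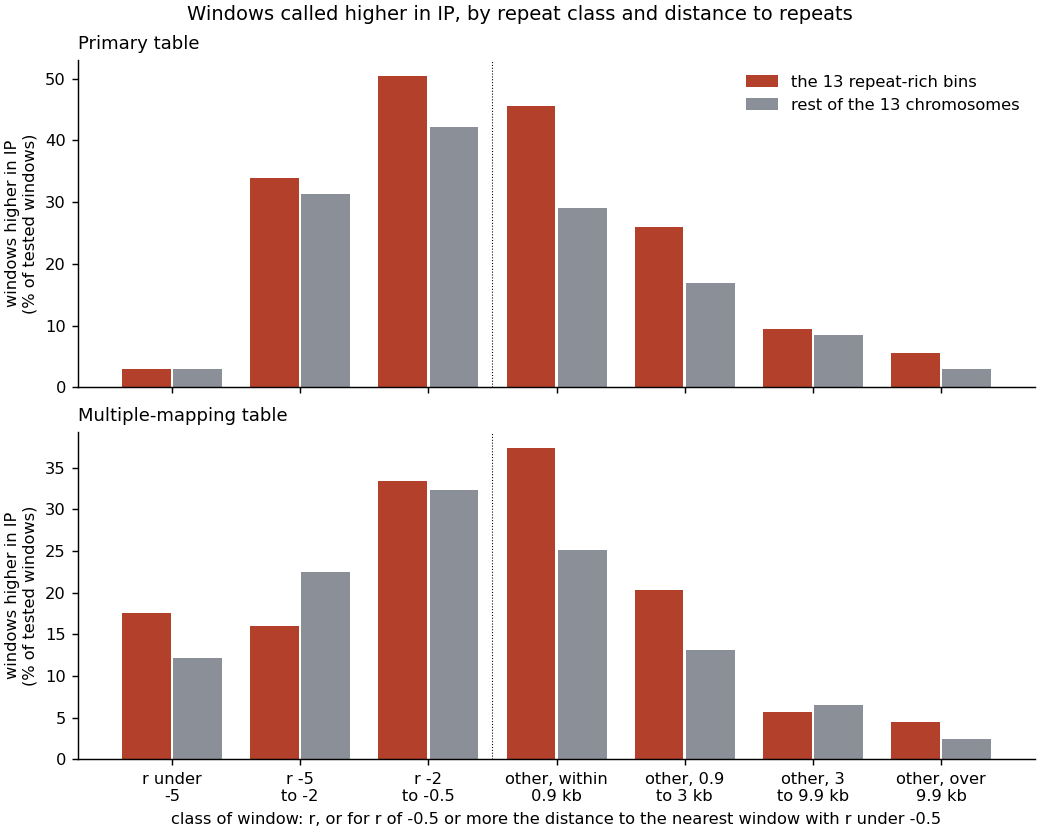
Share of tested windows called higher in IP (y axis, percent) in the 13 bins (red) and on the rest of the 13 chromosomes (grey), for 3 classes of low r and, right of the dotted line, for other windows by distance to the nearest window of low r. Both tables show the fall with distance, from 45.5% within 0.9 kb to 5.63% beyond 9.9 kb in the bins in the primary table.

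Windows of low r formed runs. Joined across gaps of at most 1 window, they made 98 runs in the 13 bins, 48 of them of 10 or more windows. The longest was a single run of 141 windows and 42300 bp in the bin of chromosome 10 (chr10:749101-791400), the only run in that bin. Chromosome 1 had a run of 26100 bp (chr1:63601-89700), chromosome 6 runs of 21600 bp (chr6:1713301-1734900) and 21000 bp (chr6:1755001-1776000), and chromosome 3 a run of 20100 bp (chr3:2161501-2181600). The share of windows called in the primary table was 27.0% in the 32 runs of 1 to 3 windows, 47.6% in runs of 4 to 9, 40.3% in runs of 10 to 29 and 28.6% in runs of 30 or more.

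Part of these runs could not be tested in the primary table. In the bins 263 windows (6.22%) had a total under 10 counts there, all of them of low r, against 757 windows (0.657%) elsewhere. They lay mainly on chromosomes 6 (108 windows), 10 (76) and 1 (41). In the multiple-mapping table, where they could be tested, 54 of them (20.5%) were called higher, with a median log2 fold change of 0.32. The long run of chromosome 10 had 76 of its 141 windows untested, 9 called in the primary table and 14 in the multiple-mapping table. The run at chr8:2371201-2385600, with all 48 windows tested, had 29 called in the primary table and 6 in the multiple-mapping table.

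**Figure D4:**
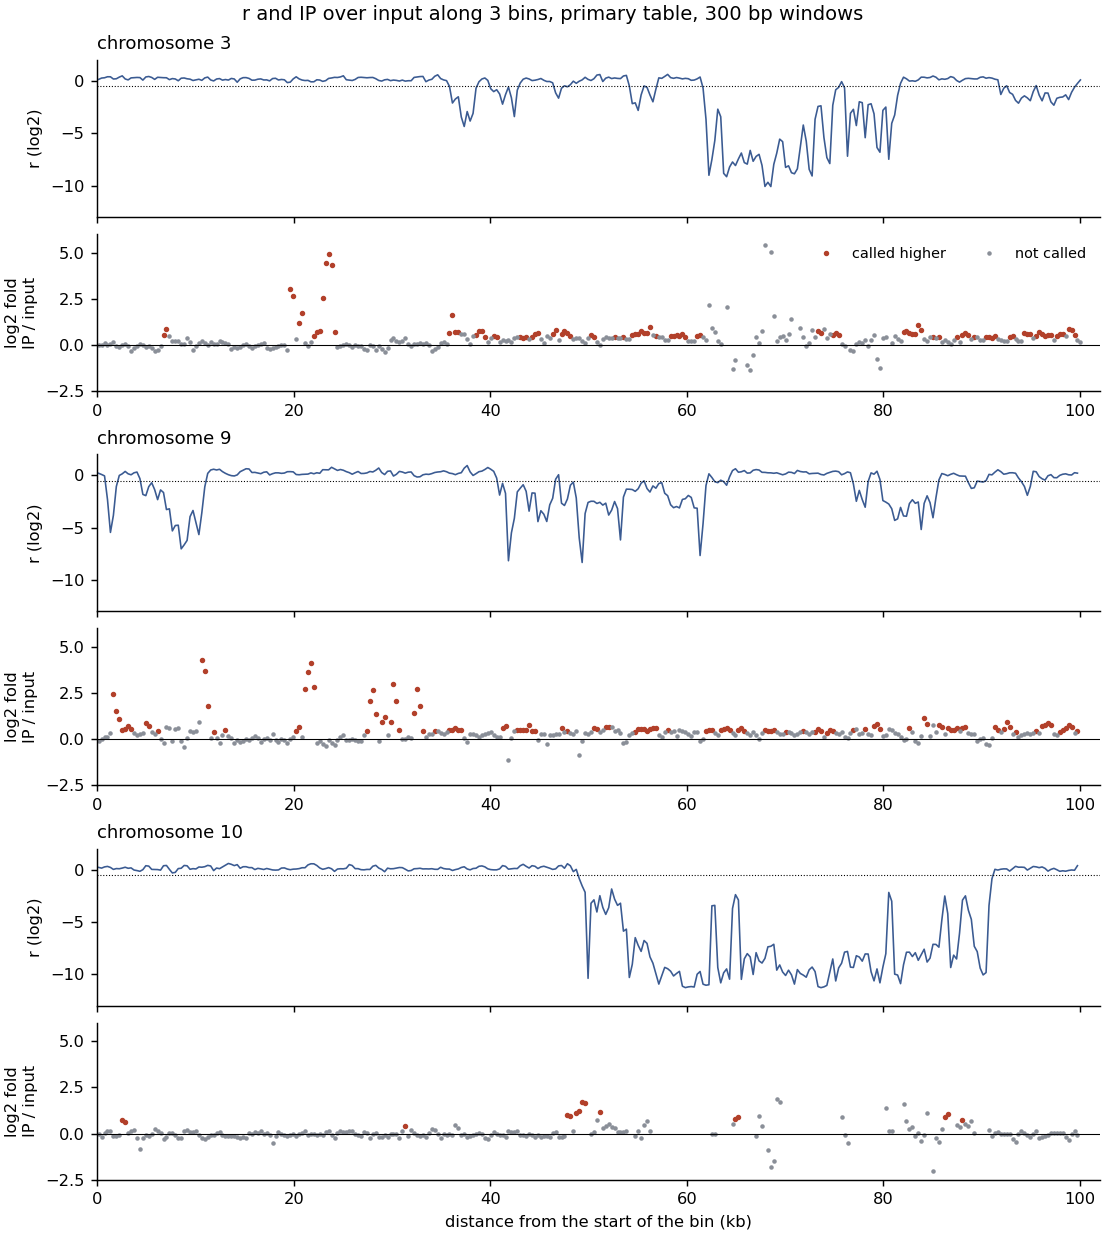
r (blue line, log2) and log2 fold change of IP over input (dots, red where called higher) in the primary table along the repeat-rich bins of chromosomes 3, 9 and 10, against distance from the start of the bin in kb. On chromosomes 3 and 9 called windows lie both within stretches of lowered r and between them. In the longest run of low r, 5 of 57 tested windows are called on chromosome 3 and 16 of 50 on chromosome 9. Sharp peaks above a log2 fold change of 4 lie in stretches of r near 0 on chromosome 3. On chromosome 9 such a peak lies in a window of low r (chr9:2210701-2211000, r -3.57, log2 fold change 4.32). On chromosome 10 the single long stretch of low r has 9 of 65 tested windows called, several of them at its left edge.

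Summed over the whole bin, 11 of the 13 bins were higher in IP in the primary table by edgeR's quasi-likelihood test at an adjusted p under 0.05. This has to be read against 41.9% of all 356 bins called higher and 45.8% called lower. None of the 13 was called lower, also at an unadjusted p under 0.05, while DESeq2's Wald test called 1 lower. The bin of chromosome 9 had 4260 and 4542 CPM (counts scaled to the size of each library) in IP 1_1 and IP B_1, against 3179 and 3018 CPM in input 1_1 and input B_1. Its log2 fold change was 0.51 ± 0.05 (SE, n = 2 columns for each group), the sixth highest of all bins. The bin of chromosome 3 had 3658 and 4008 CPM in the IP columns, against 2741 and 2656 CPM in the inputs, and a log2 fold change of 0.51 ± 0.04. In both bins the IP columns lay apart from the inputs.

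The bins of chromosomes 8 (0.30 ± 0.03), 12 (0.29 ± 0.03), 2 (0.29 ± 0.03), 1 (0.22 ± 0.02), 11 (0.21 ± 0.04), 6 (0.20 ± 0.03), 7 (0.19 ± 0.03) and 5 (0.18 ± 0.02) were called higher by smaller log2 fold changes, and that of chromosome 13 by 0.07 ± 0.02 (SE). The bins of chromosomes 4 and 10 were not called. That of chromosome 4 had 2714 and 2685 CPM in the IP columns, against 2646 and 2663 CPM in the inputs (log2 fold change 0.02 ± 0.02, edgeR adjusted p = 0.32). That of chromosome 10 had 1635 and 1605 CPM in the IP columns, against 1682 and 1669 CPM in the inputs (-0.05 ± 0.04, edgeR adjusted p = 0.22). It was the only one of the 13 in which the IP columns lay below both inputs, and with the scaling of the windows its log2 fold change was 0.03. Its 65 tested windows of low r had a median log2 fold change of 0.30 and its 192 other windows -0.05. Sums in the primary table rest mostly on such other windows. Over the 13 bins they held 2.59% to 2.84% of the reads of a column, against 0.552% to 0.783% in windows of low r.

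In the multiple-mapping table all 13 bins had positive log2 fold changes, from 0.16 on chromosome 13 to 0.34 on chromosome 9, and both IP columns exceeded both inputs in each. By bin, the window medians there were 0.28 to 0.43 at low r and -0.05 to 0.23 in the other windows. On chromosome 10 these were 0.35 and -0.04, and the summed bin had 0.22. The part of the near-equal raw counts at low r in the summed values and ranks was not tested. The 13 bins ranked between 1 and 59 among the 356 bins, with chromosomes 9, 2 and 12 at ranks 1, 2 and 3. Of the 13, 8 were called higher by edgeR, against 31.2% of all bins called higher and 43.5% called lower, and 0 were called lower, also at an unadjusted p and by DESeq2. The bins with the largest fold changes, those of chromosomes 9 (0.34 ± 0.17, SE) and 2 (0.33 ± 0.19), were not among the 8. The bin of chromosome 9 had 6092 and 7004 CPM in IP 1_1 and IP B_1, against 5247 and 5093 CPM in input 1_1 and input B_1. IP B_1 exceeded IP 1_1 in all 13 bins in this table, and in 9 of 13 in the primary table. The 8 calls were lost without input 1_1, without input B_1, and with the inputs as 1 sample, and more of the 13 were called without IP 1_1. The settings that lost the 8 also lost every call, higher or lower, among the 356 bins. DESeq2 size factors also gave 0, the replicate block 1, the scaling of the windows 4 and DESeq2's Wald test 13. Among all 356 bins these settings called 0, 18, 82 and 151 higher in turn. Over all 356 bins the share of windows of low r and the log2 fold change had a Spearman correlation of 0.602 in the primary table and 0.800 in the multiple-mapping table. These are descriptions across bins that share libraries, and the inputs enter both measures. In the multiple-mapping table the near-equal raw counts of windows of low r also enter the fold change.

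**Figure D5:**
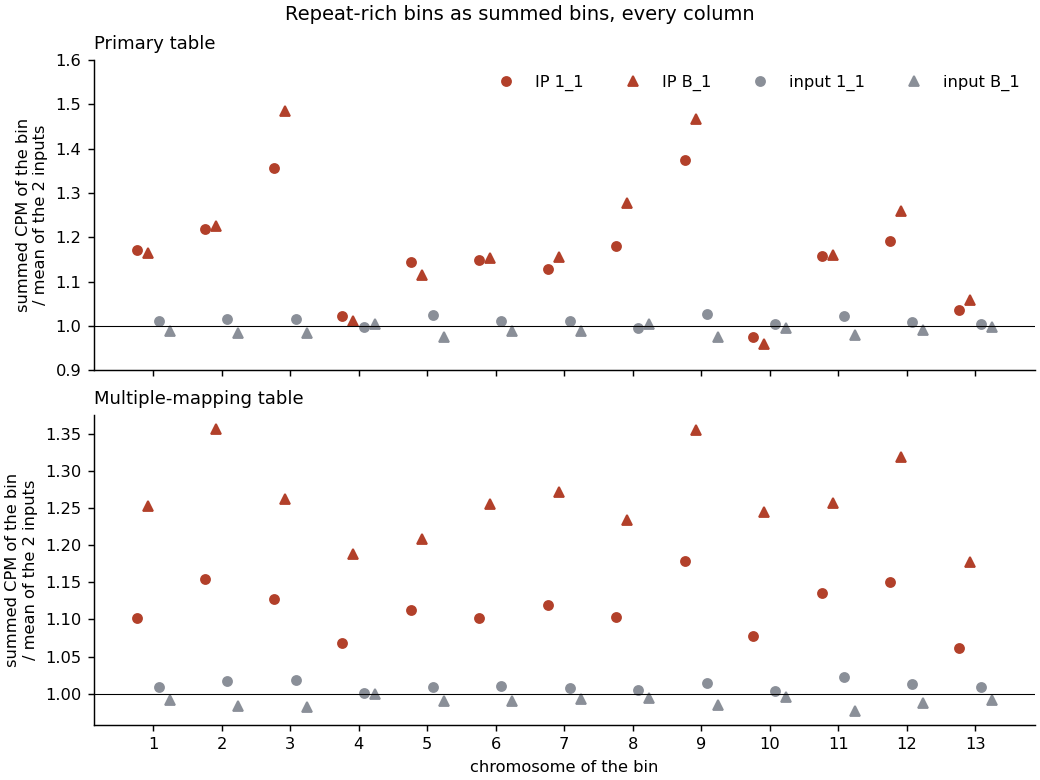
Summed CPM of each repeat-rich bin divided by the mean of the 2 inputs (y axis), for IP 1_1 and IP B_1 (red circle and triangle) and input 1_1 and input B_1 (grey), by chromosome, in the primary table (top) and the multiple-mapping table (bottom); the y axes do not start at 0. The IP columns stand above the inputs in 12 of 13 bins in the primary table and in all 13 in the multiple-mapping table, where IP B_1 lies above IP 1_1 each time. The part of the near-equal raw counts of windows of low r in the lower panel was not tested.

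Called windows joined into regions. When called windows no more than 1 window apart were joined and stretches of 3 or more of them kept, there were 126 regions in the bins in the primary table, of 1183 in the genome, which covered 20.5% of the length of the bins. Their median length was 1800 bp, and the ratio of mean CPM in IP to that in input ran from 1.32 to 11.5 with a median of 1.53. Of these regions 40 held no window of low r and 44 touched no annotated gene. The multiple-mapping table held 99 regions of 1009, with ratios of 1.23 to 2.29. Leaving out input 1_1 gave 70 regions and leaving out input B_1 gave 50 in the primary table, and 39 and 31 in the multiple-mapping table.

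Of the 5 regions with the highest ratios, 3 held no window of low r. The highest ratio was at chr3:2121901-2124300, which holds no window of low r and overlaps the genes CC1G_07408 and CC1G_07409. It had 561 and 847 CPM in IP 1_1 and IP B_1, against 61.7 and 60.6 CPM in input 1_1 and input B_1, a ratio of 11.5. Its strongest window, chr3:2123401-2123700, had 21716 and 20857 counts in the IP columns, against 314 and 369 in the inputs. The same window had, with multiple mappings kept, 490 and 468 counts in the IP columns, against 216 and 232 in the inputs, so the ratio was far smaller there. The region beside it, chr3:2119501-2121000 (CC1G_07406 and CC1G_07407), had 117 and 151 CPM in the IP columns, against 33.6 and 33.8 CPM in the inputs, a ratio of 3.97.

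Chromosome 9 held 2 of the 5 highest ratios. The region chr9:2220301-2222400 (CC1G_08520 and CC1G_08521), with no window of low r, had 316 and 477 CPM in the IP columns, against 58.9 and 62.0 CPM in the inputs, a ratio of 6.56. The region chr9:2210701-2212200, which touches no gene, had 169 and 239 CPM in the IP columns, against 45.2 and 47.0 CPM in the inputs, a ratio of 4.43. Of its 5 windows 2 had low r, among them chr9:2210701-2211000 (r -3.57), with a log2 fold change of 4.32. On chromosome 12 the region chr12:655801-660300 touches no gene, and all 15 of its windows had low r. It had 148 and 192 CPM in the IP columns, against 47.5 and 45.5 CPM in the inputs, a ratio of 3.65. The 5 were picked among regions with both IP columns above both inputs, which held for all 126, and in each of the 5 IP B_1 was the higher one. Their ratios in the multiple-mapping table were 1.36 to 1.94.

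The longest region of each bin was usually weaker. The longest of all, 7800 bp at chr5:3460501-3468300, ends at the chromosome end and overlaps CC1G_13354 and CC1G_13355. It had 567 and 571 CPM in the IP columns, against 399.99 and 357 CPM in the inputs, a ratio of 1.503. Ratios of 1.398 to 1.48 were found for the longest regions on chromosomes 7 (chr7:322501-328200), 3 (chr3:2194201-2199600), 6 (chr6:1797001-1801800) and 2 (chr2:2188801-2193000). Those of chromosomes 4 (chr4:597301-600900), 13 (chr13:214501-218400) and 11 (chr11:1130401-1134300) had ratios of 1.79, 1.77 and 1.93. On chromosome 10 the longest region, chr10:747901-750000, lies at the left edge of the long run of low r and had 85.7 and 95.5 CPM in the IP columns, against 43.9 and 38.6 CPM in the inputs, a ratio of 2.20.

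On chromosomes 1, 8 and 9, as on chromosome 12, the longest region had a higher ratio. The region chr1:4801-8400, close to the chromosome end and overlapping CC1G_13545 and CC1G_13546, had 298 and 334 CPM in the IP columns, against 95.8 and 87.7 CPM in the inputs, a ratio of 3.45. The region chr8:2310301-2314500 (CC1G_15084 and CC1G_15085) had all 14 windows called in both tables, with 354 and 474 CPM in the IP columns, against 120 and 123 CPM in the inputs, a ratio of 3.41. The region chr9:2227501-2231100 (CC1G_08523 and CC1G_08524) had 317 and 401 CPM in the IP columns, against 137 and 125 CPM in the inputs, a ratio of 2.74. In these 3 regions the IP columns lay apart from the inputs.

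Genes within the bins were called higher more often than genes elsewhere. Of 372 genes that overlap the bins, 362 are protein-coding and 9 are tRNA genes, and the annotation gives locus tags with no product names, so their roles are not described. In the primary table, 361 could be tested, and 113 of them (31.3%) were higher in IP by edgeR at an adjusted p under 0.05, against 10.6% of genes outside the bins and 11.2% of all genes tested. In the multiple-mapping table, 124 of 363 (34.2%) were higher, against 10.5% outside and 11.1% of all. Both tables called 103 of them. Of genes with at least 1 window of low r, 48 of 76 (63.2%) were higher in the primary table, and of genes with none, 65 of 285 (22.8%). Without input B_1 the count of the multiple-mapping table was 70.

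Of the genes of the bins 0 were called lower in either table, against 0.544% of all genes tested in the primary table and 0.611% in the multiple-mapping table. At an unadjusted p under 0.05 edgeR gave 14 lower genes in the primary table and 11 in the multiple-mapping table, and DESeq2's Wald test called 0 in both. The share of genes called higher was largest in the bins of chromosome 9 (11 of 19), chromosome 7 (18 of 34) and chromosome 3 (12 of 24), and smallest on chromosomes 10 (2 of 33), 13 (4 of 32) and 4 (4 of 29). On chromosome 2, the bin with the most windows of low r, 3 of 15 genes were called. Of the 9 tRNA genes only 3 hold a window midpoint. In the gene test the tRNA genes CC1G_20028 and CC1G_20242 were higher by 0.54 ± 0.15 and 0.54 ± 0.14 (log2, SE), each from a single window of low r. In the window test the window of CC1G_20028, chr2:2167801-2168100, was not called in the primary table and was called in the multiple-mapping table.

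CC1G_15085 on chromosome 8 had 101 and 143 CPM in IP 1_1 and IP B_1, against 11.7 and 12.8 CPM in input 1_1 and input B_1. Its log2 fold change was 3.31 ± 0.16 (SE, edgeR adjusted p = 1.2e-06), from a single window. CC1G_07409 on chromosome 3 had 620 and 949 CPM in the IP columns, against 88.9 and 88.7 CPM in the inputs, a log2 fold change of 3.14 ± 0.17 (SE, edgeR adjusted p = 2.5e-06). CC1G_07408 beside it had 312 and 427 CPM in the IP columns, against 77.3 and 75.5 CPM in the inputs (2.27 ± 0.13). In these 3 genes every IP value exceeded every input value, and IP B_1 exceeded IP 1_1.

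Next in order were CC1G_03141 on chromosome 8 (2.21 ± 0.19), CC1G_08520 on chromosome 9 (1.97 ± 0.14) and CC1G_13546 on chromosome 1 (1.94 ± 0.12), as log2 fold changes with SE. On chromosome 12, CC1G_15404 lies wholly within windows of low r, 13 of 13. It had 27.0 and 30.3 CPM in the IP columns, against 8.74 and 7.41 CPM in the inputs, a log2 fold change of 1.82 ± 0.12 (SE, edgeR adjusted p = 1.0e-05). With multiple mappings kept it had 307 and 390 CPM in the IP columns, against 213 and 214 CPM in the inputs, a log2 fold change of 0.70 ± 0.09. CC1G_15407 on the same chromosome (1.62 ± 0.11), CC1G_13549 on chromosome 1 (1.21 ± 0.12) and CC1G_07417 on chromosome 3 (1.18 ± 0.14) completed the 10 highest. Of these 10 genes 5 had at least 1 window of low r. All 10 were also called in the multiple-mapping table, with log2 fold changes of 0.64 to 1.61.

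Lower windows were rare in the bins. In the primary table, 12 windows (0.303%) were lower in IP, against 0.652% elsewhere and 0.640% of all windows tested, and in the multiple-mapping table, 19 (0.449%), against 0.828% elsewhere and 0.816% of all. Among windows in genes with r of -0.5 or more, 0.614% were lower in the bins and 0.849% elsewhere in the primary table. In the multiple-mapping table that class gave 1.105% and 1.09%. Outside genes the shares at such r were 0.192% and 0.331%, and 0.0962% and 0.373%, in turn. Of the 12 lower windows of the primary table, none had low r and 10 lay in genes. None of them was at least 2-fold lower, where 1 window reached 2-fold at an unadjusted p under 0.05. By DESeq2's Wald test 3 windows were lower in the primary table and 0 in the multiple-mapping table. The counts depended on the columns used. In the primary table more windows of the bins were lower when either IP column was left out, and fewer when either input was. In the multiple-mapping table fewer were lower whichever column was left out. The counts of lower windows over the whole genome moved in the same directions in both tables.

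The authors' deposited table of the primary counts called 303 of 4185 windows of the bins higher in IP (7.24%), against 3.04% on the rest of the 13 chromosomes. The authors' deposited table of the multiple-mapping counts called 507 of 4228 (12.0%), against 2.80%. Neither of the authors' deposited tables called a window of the bins lower.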

How the data were processed

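The authors deposited 2 tables of whole-number read counts per 300 bp window, a primary one and one whose name refers to multiple mapped and unique reads, with 4 count columns each; 8 RPKM columns were not used. Bowtie 0.12.7, Bismark 0.6.4 and edgeR are named in the submitters' processing notes, without their roles. Neither read filters nor a genome build is named there. The tables also carry log2 fold changes (input over IP) and adjusted p-values that the authors deposited, which served only to count the authors' calls.

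Windows, summed 100 kb bins and genes (windows with a midpoint in the gene, CC3 RefSeq gene table) with at least 10 counts in all were tested with edgeR 4.0.16 (R 4.3.3): TMM, quasi-likelihood test of 2 IP against 2 input columns, Benjamini-Hochberg adjusted p under 0.05 over the whole table. On all 13 chromosomes input counts followed gene cover best with no shift (r of 0.13 to 0.255, against at most 0.155 beyond 10 windows). P-values measure only the spread between columns, which may be technical. Each SE is the absolute log2 fold change divided by the square root of the F value of that test. It is not the spread of the 2 columns of a group. Alternatives included DESeq2 1.42.0. The scripts were tested on simulated data.

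Named are each bin, its longest region and the 5 regions of highest ratio among those with both IP columns above both inputs. Also named are the 10 genes of highest log2 fold change among called genes with at least 50 counts and 1 direction in both columns. The 3 lowest genes would have been named had any been called. The bins, lists and tests were chosen with earlier results of these data known. Lists by gene product could not be read, as the gene table used here gives no products. Columns tagged alike share only a tag.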

Additional observations from a re-analysis of the deposited data

How the results depend on the processing

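Counts in the 13 bins within 1.5 times those reported are not listed, and the cause of no change was tested. A filter at 50 counts, no filter and bins chosen by r under -1 moved no count beyond that. Leaving out the bins with a close second bin, at a chromosome end or on chromosome 9, run for higher windows alone, did not either. DESeq2 size factors gave 12 lower windows and 0 summed bins in the multiple-mapping table. DESeq2's Wald test gave 3 lower windows in the primary table, and 0 lower windows and 13 summed bins in the multiple-mapping table.

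With library totals all windows shifted, to a median log2 fold change of -0.155, against -0.012 with TMM, in the primary table, and of -0.102, against -0.019, in the multiple-mapping table. They gave 570 higher and 139 lower windows and 80 regions in the primary table, and 106 lower windows in the multiple-mapping table. Lower windows over the whole genome then came to 7539 in the primary table and 6430 in the multiple-mapping table. Window scaling gave 4 summed bins there. Inputs as 1 sample gave 381 higher and 11 lower windows, 0 summed bins and 47 regions.

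At 2-fold or more the primary table kept 175 higher and 0 lower windows, 0 summed bins, 30 regions and 17 genes. The multiple-mapping table kept 28 and 0 windows, 0 summed bins, 3 regions and 2 genes. Bins of 50 kb, at 7 of 13 places overlapping the bins used, gave 600 higher and 1 lower windows, 79 regions and 75 genes in the primary table. They gave 452 higher and 5 lower windows and 54 regions in the multiple-mapping table. Bins cut with an offset of 50 kb, at 8 places overlapping, gave 5 summed bins called there. With r from input 1_1 and IP against input B_1 alone, 513 windows were higher in the primary table and 328 in the multiple-mapping table. With the inputs exchanged, 374 and 239 were.

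The tags shared by an IP and an input column are no evidence of pairing. Deviations of like-tagged columns correlated at 0.188 in the primary table and 0.0607 in the other over windows. A replicate block gave 87 lower windows in the primary table and 1 summed bin in the multiple-mapping table, and moved no other count beyond 1.5 times.

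Leaving out 1 column at a time gave 374 to 1379 higher windows, 1 to 214 lower windows, 9 to 11 summed bins, 50 to 145 regions and 92 to 136 genes in the primary table. In the multiple-mapping table it gave 239 to 1956, 3 to 12, 0 to 13, 31 to 121 and 70 to 137. Where an arm keeps 1 column, that column is assumed to vary like the other group. The counts of higher and of lower windows over the whole genome moved in the same directions as those in the bins.

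The share of windows at low r in IP 1_1 was 31.1% with r under -1, 34.3% in bins with the offset and 54.3% in bins of 50 kb. In IP B_1 these were 32.8%, 35.2% and 55.6%, in input 1_1 32.3%, 34.8% and 55.4%, and in input B_1 32.3%, 34.7% and 55.3%. Where r is under -5 the primary medians were 3 counts or fewer, and the part of depth in the few calls there was not tested.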
